A study of Mus musculus with 6 samples.

Results

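The data described here are the levels of 40 genes of fatty acid uptake, activation and oxidation in mouse hearts, chosen by symbol from a table of 26881 genes. All 40 were found, each as 1 gene. The libraries were of total RNA from 3 Cfp1-cKO and 3 WT hearts, all taken at 2 weeks of age from C57BL/6 mice. In Cfp1-cKO mice (Myh6-Cre with Cfp1 flox/flox, labelled CXXC1 null) the Cre recombinase is driven by the Myh6 promoter, which is active in cardiomyocytes, so that other cells of the heart keep Cfp1. WT mice were littermate controls. Cfp1, encoded by Cxxc1, binds unmethylated CpG and belongs to a complex that methylates histone H3 at lysine 4. The study asked how its loss alters genes of cardiomyocyte maturation, fatty acid metabolism among them.

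The heart turns to fatty acids as its main fuel in the weeks after birth. Fatty acids enter the cardiomyocyte through carriers at the membrane, are activated to acyl-CoA, pass into mitochondria through the carnitine shuttle, and are shortened in the cycles of beta-oxidation, whose electrons reach the respiratory chain through the electron transfer flavoproteins. Malonyl-CoA restrains the first enzyme of the shuttle, and lipid droplets store and release the surplus.

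Values are FPKM (fragments per kilobase of exon, scaled to the library total), given in the order of replicates 1, 2 and 3, and gene coordinates are of GRCm38. FPKM are not counts, so the genotypes were compared by limma on log2(FPKM + 1) over the 11017 genes that averaged 1 FPKM or more. A gene passed the test at an absolute log2 fold change above 0.5 and a Benjamini-Hochberg adjusted p below 0.05, adjusted over all genes tested. Fold changes on this scale understate those of low genes. Whether a library was made from 1 heart or from pooled hearts is not given in the sources used here. The p-values therefore cover only the spread between libraries, part of which may be technical. Xist, from which sex was read, had 22.5, 34.5 and 0.0279 FPKM in Cfp1-cKO hearts, against 0.0123, 12.4 and 0.0124 FPKM in WT hearts. The libraries of a group were therefore not all repeats of the same heart or pool.

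Library totals, worked back from the steps in the FPKM values, were between 16672652 and 19481847 fragments in Cfp1-cKO and between 18007474 and 22700811 fragments in WT hearts. Cxxc1 had 8.02, 9.94 and 8.74 FPKM in Cfp1-cKO hearts, against 9.66, 12.9 and 10.0 FPKM in WT hearts. These values overlapped, and the difference did not pass the test (log2 fold change -0.26, adjusted p = 0.249). The table holds whole genes, so it does not show whether the floxed exons were lost. Of 10 cardiomyocyte markers, 3 were lower in Cfp1-cKO hearts and none was higher, and their summed level was between 6633 and 10207 FPKM in Cfp1-cKO and between 7427 and 15357 FPKM in WT hearts. None of them was at 0 in any library. Of 7 atrial cardiomyocyte markers, 3 were lower in Cfp1-cKO hearts and 1, the natriuretic peptide gene Nppa, was higher, with sums between 357 and 664 FPKM in Cfp1-cKO hearts, against between 875 and 1565 FPKM in WT hearts. None was at 0. Of these Myl7, the atrial myosin light chain, had 11.5, 119 and 49.4 FPKM in Cfp1-cKO hearts, against 557, 581 and 920 FPKM in WT hearts (a log2 fold change of -3.98, adjusted p = 0.0101). Of 10 endothelial markers, 3 were higher and none was lower, with sums between 218 and 305 FPKM in Cfp1-cKO hearts, against between 171 and 215 FPKM in WT hearts. Beside these marker counts, 21.1% of all tested genes were higher and 1.68% were lower. When the libraries were scaled by median of ratios, none of the 10 endothelial markers passed. Of 11 tested lung epithelial markers, 10 were higher in Cfp1-cKO hearts. The 12 lung markers listed summed to between 3406 and 5181 FPKM in Cfp1-cKO hearts, against between 79.3 and 105 FPKM in WT hearts, where 2 to 8 of the 12 were at 0 in a library and Lamp3, a marker of alveolar cells, was at 0 in all 3. Nearly all of the WT sums came from Hopx, the tested lung marker that was not higher. Hopx had 85.6, 60.2 and 109 FPKM in Cfp1-cKO hearts, against 105, 75.4 and 103 FPKM in WT hearts. It did not differ as the other tested lung markers did, so the WT sums cannot be read as a level of lung RNA. The part of lung RNA, or of unequal atrial tissue, in the differences below was not tested. Since the tissue was bulk heart, fewer cells of a type and less RNA per cell cannot be told apart.

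From FPKM as deposited, every step of fatty acid use had at least 1 gene that was lower in Cfp1-cKO hearts. At the activation step 1 gene was lower and 2 were higher. Of the 38 members that passed the filter on low values, 14 were lower in Cfp1-cKO hearts, where 1.68% of all tested genes were lower. They were Cd36 and Slc27a1 of uptake, Acsl1 of activation, Cpt2 and Crat of the carnitine shuttle, Mlycd of malonyl-CoA control, Hadh, Acaa2, Echs1 and Eci2 of beta-oxidation, Etfdh of electron transfer, the uncoupling protein Ucp3, the thioesterase Acot1 and the lipid droplet gene Plin5. Only 2 members, Acsl4 and Acsl5, were higher, where 21.1% of all tested genes were higher. The median log2 fold change of the members was -0.45, beside 0.35 for all tested genes, and 32 of the 38 values were below 0. In 21 members every Cfp1-cKO value lay below every WT value, as it did in 3.23% of tested genes, and in 2 members every Cfp1-cKO value lay above, as it did in 46.4% of tested genes. The 2 members below the filter were Acsl6 and Cpt1b.

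**Figure D1:**
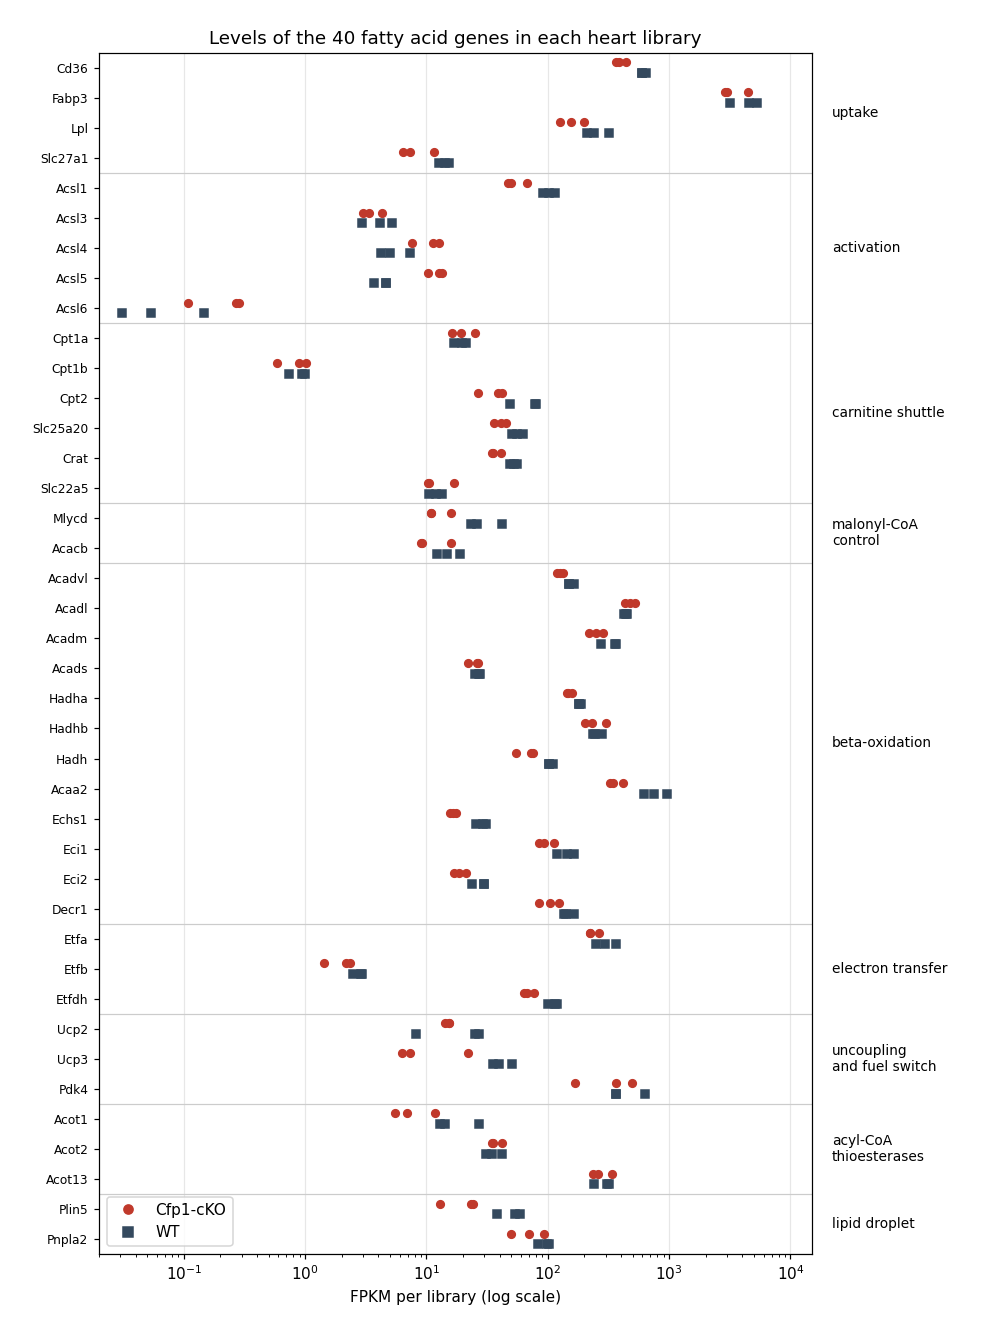
FPKM of the 40 genes in each library, on a log scale, grouped by step (Cfp1-cKO red circles above, WT dark squares below, 1 point per library). Fabp3 stood highest, at 2887 FPKM or more in every library, and Acsl6 and Cpt1b lowest.

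The number of lower genes depended on single libraries and on the scaling. Without Cfp1-cKO replicate 2, 1 member (Plin5) was lower, where 0.454% of all genes were, and 1 (Acsl5) was higher, where 4.88% were. Without WT replicate 1, 4 members (Acsl1, Mlycd, Acaa2 and Ucp3) were lower, where 0.554% of all genes were, and 1 (Acsl5) was higher, where 5.62% were. Without Cfp1-cKO replicate 1, 9 members were lower, beside 105 of all 11017 tested genes. Without Cfp1-cKO replicate 3 the number of members lower was also 9, beside 132 of all tested genes. Acsl5 passed the test in all 6 fits that left out a library, and Acsl1, Acaa2, Mlycd, Ucp3 and Plin5 each passed in 5 of 6. Echs1 passed in 4, Etfdh in 3, Cd36, Acsl4, Cpt2, Hadh and Acot1 in 2, Slc27a1 and Eci2 in 1, and Crat in 0.

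Because the median of all genes lay at 0.35, the libraries were also scaled by median of ratios, which brought that median to 0.00. Then 20 members were lower, where 3.25% of all genes were, and Acsl5 alone was higher, where 3.74% were. The members' median log2 fold change was then -0.89. Median-of-ratios scaling divided Cfp1-cKO values by 1.07 to 1.23 and WT values by 0.82 to 0.91. It therefore lowered every gene in Cfp1-cKO relative to WT hearts, and it assumes that the median gene did not change. The part of lung RNA in that median was not tested. When the libraries were instead scaled to the mean of the 10 cardiomyocyte markers, 2 members, Ucp3 and Plin5, were lower, where 0.563% of all genes were, and Acsl4 and Acsl5 were higher, where 38.8% were. The members' median was then -0.11. Relative to cardiomyocyte markers, the falls of the other 12 genes did not pass the test, and their log2 fold changes were between -0.85 for Mlycd and -0.16 for Crat. Among these markers Tnnt2 (-0.89), Ryr2 (-1.04) and Myl3 (-0.97) were themselves lower from FPKM as deposited. This scaling therefore takes out part of any fall that members shared with the markers, whatever its source, which was not tested.

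**Figure D2:**
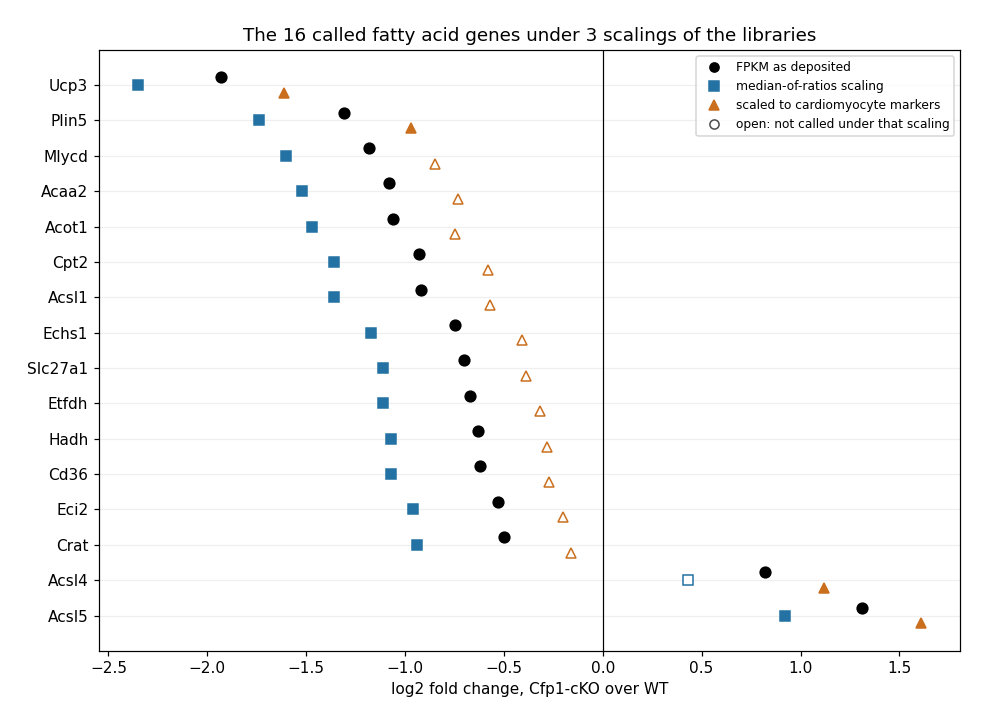
Log2 fold changes of the 16 members that passed the test, from FPKM as deposited (circles), after median-of-ratios scaling (squares) and after scaling to cardiomyocyte markers (triangles), with filled symbols where the gene passed the test. Ucp3, Plin5 and Acsl5 kept a filled symbol in all 3.

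Uptake genes. Cd36 (ENSMUSG00000002944, chr5:17781690-17888801), the main long-chain fatty acid carrier of the cardiomyocyte membrane, had 390, 367 and 441 FPKM in Cfp1-cKO hearts, against 599, 640 and 598 FPKM in WT hearts. The groups did not overlap, and the WT libraries lay close together. The log2 fold change was -0.62 (standard error, SE, 0.15, adjusted p = 0.0237). Slc27a1, a fatty acid transport protein, had 7.31, 6.43 and 11.6 FPKM in Cfp1-cKO hearts, against 14.1, 12.7 and 15.2 FPKM in WT hearts. Its value in Cfp1-cKO replicate 3 came close to the lowest WT value, and the log2 fold change was -0.70 (SE 0.21, adjusted p = 0.0458). It passed in only 1 of the 6 fits that left out a library. Fabp3, the heart fatty acid binding protein that carries fatty acids through the cytosol, was the most abundant member. It had 4456, 3024 and 2887 FPKM in Cfp1-cKO hearts, against 4558, 5270 and 3187 FPKM in WT hearts. These ranges overlapped and the difference did not pass the test (log2 fold change -0.33, 95% interval -0.89 to 0.24). Lpl, the lipoprotein lipase that frees fatty acids from circulating triglyceride, had 155, 126 and 200 FPKM in Cfp1-cKO hearts, against 211, 322 and 239 FPKM in WT hearts. Its groups did not overlap but the change narrowly missed the threshold (log2 fold change -0.68, adjusted p = 0.0562), and passed it after median-of-ratios scaling (-1.12, adjusted p = 0.0396).

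**Figure D3:**
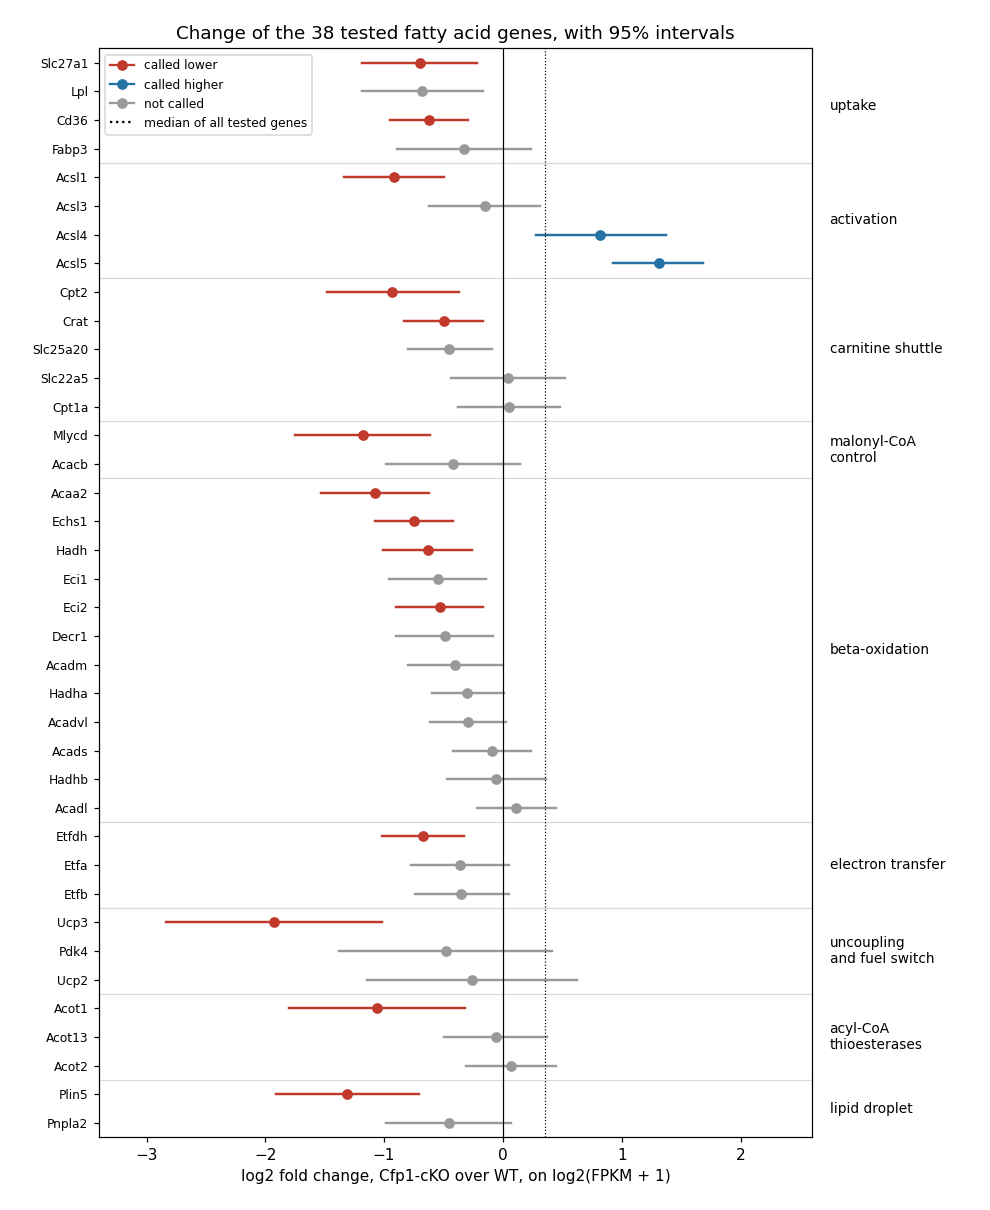
Log2 fold change of each of the 38 tested members with its 95% interval, grouped by step (red lower, blue higher, grey not past the test). The dotted line marks the median of all tested genes at 0.35, and 32 of 38 points lie left of 0.

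Activation genes. The 5 Acsl genes, long-chain acyl-CoA synthetases that couple fatty acids to coenzyme A, differed in direction: Acsl1 was lower, Acsl4 and Acsl5 were higher, and Acsl3 did not pass the test. Acsl1 (ENSMUSG00000018796, chr8:46471037-46536051), the main family member of heart muscle, had 49.3, 47.2 and 67.4 FPKM in Cfp1-cKO hearts, against 91.3, 115 and 103 FPKM in WT hearts. The groups were well apart, with a log2 fold change of -0.92 (SE 0.18, adjusted p = 0.0148). Acsl5 (ENSMUSG00000024981, chr19:55253369-55296627 as the table gives it), a synthetase prominent in intestine, had 10.3, 13.5 and 12.7 FPKM in Cfp1-cKO hearts, against 4.60, 3.69 and 4.64 FPKM in WT hearts. Every Cfp1-cKO value was above every WT value, and the log2 fold change of 1.31 (SE 0.16, adjusted p = 0.00274) had the smallest adjusted p of all members. Acsl4, which prefers arachidonic acid, had 7.56, 11.3 and 12.7 FPKM in Cfp1-cKO hearts, against 4.21, 7.31 and 4.99 FPKM in WT hearts. The lowest Cfp1-cKO value lay just above the highest WT value (log2 fold change 0.82, adjusted p = 0.0403), and the gene did not pass after median-of-ratios scaling (0.43, adjusted p = 0.279). Acsl3, a synthetase of the endoplasmic reticulum and lipid droplets, had 3.0, 3.36 and 4.27 FPKM in Cfp1-cKO hearts, against 4.16, 5.21 and 2.94 FPKM in WT hearts. The ranges overlapped (log2 fold change -0.15, 95% interval -0.62 to 0.31). Acsl6 had 0.284 FPKM or less in every library and was not tested.

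Within a library the makeup of the family needs no scaling between libraries. Acsl1 made up 70.2%, 62.4% and 69.3% of the summed FPKM of the 5 genes in Cfp1-cKO hearts, against 87.5%, 87.6% and 89.1% in WT hearts. The mean share was 20.8 percentage points lower in Cfp1-cKO hearts (67.3% ± 4.26 against 88.1% ± 0.849, SD, n = 3 each, exact permutation p = 0.10, two-sided, the smallest that 3 against 3 libraries can give). The same Cfp1-cKO libraries carried the lung markers given above, and the part of lung RNA in this share and in the rises of Acsl4 and Acsl5 was not tested.

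**Figure D4:**
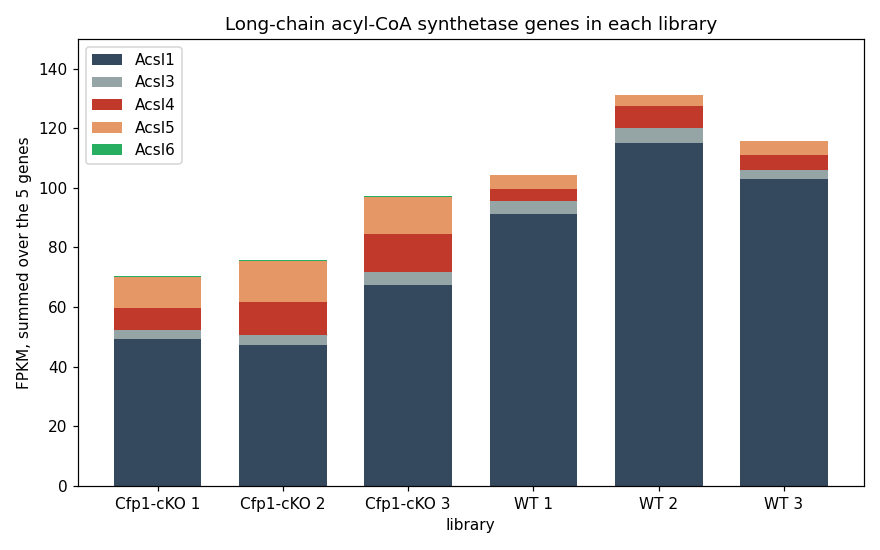
FPKM of the 5 long-chain acyl-CoA synthetase genes, stacked, in each library (Cfp1-cKO on the left, WT on the right). The Acsl1 segment is shorter in all 3 Cfp1-cKO libraries (47.2 to 67.4 FPKM against 91.3 to 115 FPKM), while the Acsl4 and Acsl5 segments are taller.

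Carnitine shuttle genes. Cpt2 (ENSMUSG00000028607, chr4:107903981-107923610), the inner-membrane palmitoyltransferase that hands the acyl group back to coenzyme A, had 41.6, 26.6 and 38.7 FPKM in Cfp1-cKO hearts, against 78.3, 49.0 and 80.2 FPKM in WT hearts. WT replicate 2 lay well below the other two WT libraries but above all Cfp1-cKO libraries (log2 fold change -0.93, SE 0.24, adjusted p = 0.0312). Crat, the carnitine acetyltransferase that buffers acetyl-CoA, had 34.7, 35.2 and 41.0 FPKM in Cfp1-cKO hearts, against 49.1, 56.2 and 52.9 FPKM in WT hearts. The groups did not overlap, but its change was at the edge of the fold threshold (log2 fold change -0.50, adjusted p = 0.0398), and it passed in none of the 6 fits that left out a library. Slc25a20, the carnitine and acylcarnitine exchanger, did not overlap between groups at 36.2 to 45.1 FPKM in Cfp1-cKO hearts, against 50.5 to 62.0 FPKM in WT hearts, and missed the threshold (log2 fold change -0.45, adjusted p = 0.0654). Slc22a5, the plasma membrane carnitine transporter, had 10.3 to 16.8 FPKM in Cfp1-cKO hearts, against 10.4 to 13.4 FPKM in WT hearts, and Cpt1a, the liver-type palmitoyltransferase that starts the shuttle, had 16.2 to 25.2 FPKM in Cfp1-cKO hearts, against 17.0 to 21.1 FPKM in WT hearts. Both overlapped, with 95% intervals of -0.44 to 0.52 for Slc22a5 and -0.38 to 0.48 for Cpt1a on the log2 scale.

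Cpt1b, the muscle-type palmitoyltransferase, was listed at only 0.883, 0.587 and 1.02 FPKM in Cfp1-cKO hearts, against 0.941, 0.740 and 1.00 FPKM in WT hearts. The ranges overlapped, and the gene fell below the filter and was not tested. These values rest on 33 to 72 fragments and cannot be read as the level of the whole gene. In GENCODE release M21 81.4% of its exon bases are shared, on the same strand, with Gm44502, a gene with no row in the table, and how fragments on shared bases were assigned is not given in the sources used here. The share of Cpt1b in the sum of Cpt1a and Cpt1b, between 2.97% and 5.16% in Cfp1-cKO and between 3.64% and 5.25% in WT hearts, carries the same limit (exact permutation p = 0.60, two-sided).

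Malonyl-CoA control. Mlycd (ENSMUSG00000074064, chr8:119394878-119411102), the malonyl-CoA decarboxylase that relieves the brake on the shuttle, had 11, 10.9 and 16 FPKM in Cfp1-cKO hearts, against 26.2, 42.2 and 23.1 FPKM in WT hearts. The Cfp1-cKO mean was 41.5% of the WT mean and the groups did not overlap (log2 fold change -1.18, SE 0.25, adjusted p = 0.0177). Acacb, the mitochondrial acetyl-CoA carboxylase that makes malonyl-CoA, had 9.20, 9.08 and 15.9 FPKM in Cfp1-cKO hearts, against 12.2, 14.8 and 18.9 FPKM in WT hearts. Its groups overlapped through Cfp1-cKO replicate 3 (log2 fold change -0.42, 95% interval -0.98 to 0.14).

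Beta-oxidation genes. The 12 genes of the cycle did not all pass the test: 4 were lower and none was higher, and their log2 fold changes ran from -1.08 to 0.11 with a median of -0.45. Acaa2 (ENSMUSG00000036880, chr18:74779197-74806208), the mitochondrial 3-ketoacyl-CoA thiolase of the last step, had the highest mean of them over the 6 libraries, although Acadl was above it in each Cfp1-cKO library. It had 417, 326 and 342 FPKM in Cfp1-cKO hearts, against 745, 957 and 616 FPKM in WT hearts. The Cfp1-cKO mean was 46.8% of the WT mean, with no overlap (log2 fold change -1.08, SE 0.20, adjusted p = 0.0120). Echs1, the short-chain enoyl-CoA hydratase of the second step, had 17.6, 16.5 and 15.5 FPKM in Cfp1-cKO hearts, against 29.2, 30.9 and 25.5 FPKM in WT hearts. Both groups were tight and apart (log2 fold change -0.75, SE 0.14, adjusted p = 0.0136).

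Hadh, the short-chain 3-hydroxyacyl-CoA dehydrogenase of the next step, had 75.2, 55.2 and 73.3 FPKM in Cfp1-cKO hearts, against 103, 110 and 102 FPKM in WT hearts. The groups did not overlap (log2 fold change -0.63, adjusted p = 0.0305). Eci2, an enoyl-CoA isomerase for unsaturated chains found in peroxisomes and mitochondria, had 21, 16.9 and 18.6 FPKM in Cfp1-cKO hearts, against 29.9, 29.6 and 23.8 FPKM in WT hearts (a log2 fold change of -0.53, adjusted p = 0.0443). Its groups were apart, but it passed in only 1 of the 6 fits that left out a library. Eci1, the mitochondrial isomerase, with Decr1, which reduces dienoyl-CoA, also lay lower with no overlap, at 84.7 to 113 FPKM for Eci1 and 84.8 to 124 FPKM for Decr1 in Cfp1-cKO hearts, against 120 to 165 FPKM for Eci1 and 135 to 164 FPKM for Decr1 in WT hearts. Neither passed the test (adjusted p = 0.0552 for Eci1 and 0.0726 for Decr1).

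The acyl-CoA dehydrogenases, which open each cycle and differ by chain length, did not pass from FPKM as deposited. Acadl, for long chains, had 477, 429 and 523 FPKM in Cfp1-cKO hearts, against 445, 451 and 421 FPKM in WT hearts (a log2 fold change of 0.11, 95% interval -0.22 to 0.45). It was the only gene of the cycle with a value above 0, and after median-of-ratios scaling its value was -0.33 (adjusted p = 0.295). Acadvl, for very long chains, Acadm, for medium chains, and Acads, for short chains, had log2 fold changes of -0.29 for Acadvl, -0.40 for Acadm and -0.09 for Acads, and Acadvl alone of these had groups that did not overlap. After median-of-ratios scaling Acadvl passed the test (-0.73, adjusted p = 0.0357). In GENCODE 42.9% of the exon bases of Acadvl overlap Dvl2 on the other strand, and whether fragments were counted by strand is not given in the sources used here. Hadha and Hadhb, the alpha and beta subunits of the trifunctional protein, differed from each other in overlap. Hadha had 144 to 159 FPKM in Cfp1-cKO hearts, against 182 to 188 FPKM in WT hearts, and Hadhb had 204 to 302 FPKM in Cfp1-cKO hearts, against 236 to 279 FPKM in WT hearts. Neither passed the test (adjusted p = 0.125 for Hadha and 0.817 for Hadhb), Hadha passed after median-of-ratios scaling (-0.74, adjusted p = 0.0424), and the difference between them was not tested.

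Electron transfer genes. Etfdh (ENSMUSG00000027809, chr3:79603788-79629500), the dehydrogenase that passes electrons from the flavoprotein to ubiquinone, had 77.6, 63.6 and 68.0 FPKM in Cfp1-cKO hearts, against 114, 120 and 101 FPKM in WT hearts. The groups were apart by a wide margin (log2 fold change -0.67, SE 0.15, adjusted p = 0.0205). Etfa, the alpha subunit of the flavoprotein, had 262, 221 and 221 FPKM in Cfp1-cKO hearts, against 296, 367 and 251 FPKM in WT hearts. It overlapped through Cfp1-cKO replicate 1 and WT replicate 3 (log2 fold change -0.36, adjusted p = 0.154). Etfb, the beta subunit, was listed at 1.44 to 2.34 FPKM in Cfp1-cKO hearts, against 2.46 to 2.92 FPKM in WT hearts, far below its partner Etfa per length of transcript. In GENCODE 58.2% of its exon bases are shared on the same strand with Gm45233, and its level, which rests on 28 to 65 fragments, has the same limit as that of Cpt1b.

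Uncoupling and fuel switch. Ucp3 (ENSMUSG00000032942, chr7:100472990-100486432), the muscle uncoupling protein of the inner mitochondrial membrane, had the lowest fold change of the members. It had 6.34, 7.27 and 22.0 FPKM in Cfp1-cKO hearts, against 35.4, 50.9 and 39.7 FPKM in WT hearts. Cfp1-cKO replicate 3 stood above the other two but below all WT libraries (log2 fold change -1.93, SE 0.40, adjusted p = 0.0165). Ucp2, its more widely expressed relative, was steady at 14.1 to 15.3 FPKM in Cfp1-cKO hearts, against 27.3, 8.24 and 25.3 FPKM in WT hearts, where replicate 2 lay below every Cfp1-cKO library (log2 fold change -0.26, adjusted p = 0.615). Ucp3 made up 29.4%, 34.0% and 59.0% of the 2 genes' sum in Cfp1-cKO hearts, against 56.5%, 86.1% and 61.1% in WT hearts. These shares overlapped, and the difference of -27.1 percentage points had an exact permutation p of 0.20 (two-sided). Pdk4, the kinase that shuts pyruvate dehydrogenase when fatty acids are burned, had 494, 167 and 366 FPKM in Cfp1-cKO hearts, against 365, 363 and 627 FPKM in WT hearts. It varied more within each group than between them (log2 fold change -0.48, adjusted p = 0.351).

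Thioesterases and lipid droplet. Acot1, a cytosolic enzyme that splits long-chain acyl-CoA, had 6.90, 5.49 and 11.8 FPKM in Cfp1-cKO hearts, against 14.3, 27 and 13.0 FPKM in WT hearts. The groups did not overlap, though Cfp1-cKO replicate 3 came near WT replicate 3 (log2 fold change -1.06, SE 0.32, adjusted p = 0.0464). Its mitochondrial neighbour on chromosome 12, Acot2, had 35.0 to 41.8 FPKM in Cfp1-cKO hearts, against 30.7 to 41.7 FPKM in WT hearts (a log2 fold change of 0.07, adjusted p = 0.763). The 2 genes are close paralogs and may share fragments. Acot13, a small thioesterase of mitochondria, had 336, 258 and 237 FPKM in Cfp1-cKO hearts, against 308, 318 and 239 FPKM in WT hearts, with complete overlap (log2 fold change -0.06, adjusted p = 0.817). Plin5 (ENSMUSG00000011305, chr17:56111601-56117596), the perilipin that ties lipid droplets to mitochondria in oxidative tissue, had 24.1, 13.0 and 23.3 FPKM in Cfp1-cKO hearts, against 53.5, 38.2 and 59.5 FPKM in WT hearts. The Cfp1-cKO mean was 39.9% of the WT mean, with no overlap (log2 fold change -1.31, SE 0.26, adjusted p = 0.0156). Pnpla2, the triglyceride lipase of the droplet, had 69.7, 49.4 and 93.0 FPKM in Cfp1-cKO hearts, against 82.6, 98.3 and 103 FPKM in WT hearts, and overlapped through replicate 3 (log2 fold change -0.45, adjusted p = 0.160).

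Lists of genes around the pathway are given beside the same shares of all tested genes, 21.1% higher and 1.68% lower, and no difference between a list and the members was tested. Of 10 tested genes of fatty acid synthesis, 5 were higher and none was lower, with a median log2 fold change of 0.74. Scd1, the desaturase that makes oleic acid, had 43.8, 79.7 and 91.7 FPKM in Cfp1-cKO hearts, against 2.68, 3.72 and 6.04 FPKM in WT hearts (a log2 fold change of 3.81, adjusted p = 0.000355). The groups were far apart. The elongase Elovl1 (log2 fold change 1.59) and the fatty acid synthase Fasn (1.12) also rose, and Fasn alone of the 3 overlapped, with 4.22 FPKM in Cfp1-cKO replicate 1 and 4.31 FPKM in WT replicate 2. After median-of-ratios scaling, with which 3.74% of all genes were higher, Scd1 and Elovl1 alone of the 10 passed. Scd1 and Fasn are also highly expressed in the lung alveolar cells whose markers were present in the Cfp1-cKO libraries, and the part of lung RNA in these rises was not tested. Of 8 tested macrophage markers 5 were higher (Cd68, Csf1r, Lyz2, Mrc1 and Chil3). Adgre1 (adjusted p = 0.0642), C1qa (0.089) and C1qb (0.11) did not pass. The listed macrophage markers summed to between 495 and 909 FPKM in Cfp1-cKO hearts, against 85.3 to 96.7 FPKM in WT hearts. Lyz2 made up most of the Cfp1-cKO sums, with 387, 548 and 771 FPKM, against 42.6, 56.0 and 36.0 FPKM in WT hearts. The sums therefore mostly follow that gene and do not measure the number of macrophages. The part of lung RNA in them was not tested. After median-of-ratios scaling 3 of the 8 macrophage markers were higher (Cd68, Lyz2 and Chil3).

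Of 13 tested peroxisomal oxidation genes, 1 was higher (Decr2, a peroxisomal dienoyl-CoA reductase, log2 fold change 1.21, adjusted p = 0.0427) and none was lower, with a median of 0.43 that lay near the 0.35 of all genes. Of 13 other mitochondrial oxidation genes, 1 was lower, Ech1, an isomerase of dienoyl-CoA (log2 fold change -1.13, adjusted p = 0.0387), and 1 was higher, Acad12 (1.18). Among 14 other uptake and lipolysis genes only Plin3, another perilipin, was lower (-1.22, adjusted p = 0.0140), and none was higher. It had 11.2, 11.7 and 15.6 FPKM in Cfp1-cKO hearts, against 35.5, 21.5 and 38.5 FPKM in WT hearts, with no overlap. Of 4 other thioesterase genes Acot9 was higher (0.73) and none was lower. Of 5 tested genes of ketone body use, 1 was lower and 1 was higher. The higher one was Slc16a1, which carries ketone bodies across the membrane (log2 fold change 0.72, adjusted p = 0.0469). After median-of-ratios scaling Plin3 passed the test and Decr2, Ech1, Acad12, Acot9 and Slc16a1 did not. Of the 8 adipocyte markers 2 passed the filter, and 1 of them, Cidea, a lipid droplet gene of brown fat, was higher, with 47.3, 40.9 and 35.5 FPKM in Cfp1-cKO hearts, against 24.1, 13.4 and 24.5 FPKM in WT hearts (a log2 fold change of 1.00, adjusted p = 0.0257). The groups did not overlap, and Cidea made up most of the list's sums of 37.2 to 53.1 FPKM in Cfp1-cKO hearts and 13.4 to 29.7 FPKM in WT hearts. Ucp1 of brown fat, the other gene past the filter, had 0, 8.80 and 0.136 FPKM in Cfp1-cKO hearts, against 0, 0 and 2.95 FPKM in WT hearts, and Adipoq, which defines adipocytes, had at most 1.09 FPKM. The part of adipocyte RNA in these results was not tested.

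The sequences before the start sites of 4 members are shown because Cfp1 binds CpG and the members that passed the test differ widely in it. RefSeq promoter windows on GRCm38.p6 matched 34 of the 40 members, some with several start sites. In the 250 bases before the start, the 16 windows of the lower members held between 2 and 22 CG, with a median of 10.5, the 2 windows of the higher members held 7 and 25, and the 19 windows of the members past the filter that did not pass the test held between 6 and 30, with a median of 14. The median of all 32851 windows was 6. At the starts shown, Ucp3, with the strongest fall, is CG-poor, while Mlycd and Acsl1, also lower, and Acsl4, higher, are CG-rich. A second Acsl1 start lies inside the gene and is not printed. Its window (chr8:46490716-46490965) held only 2 CG. The stretches below end where the GENCODE gene begins, run 5′ to 3′ on the gene's strand, and have CG in capitals. They lie at chr7:100472741-100472989 (+) for Ucp3, chr8:119394644-119394877 (+) for Mlycd, chr8:46470787-46471036 (+) for Acsl1 and chrX:142390536-142390785 (-) for Acsl4.
Ucp3: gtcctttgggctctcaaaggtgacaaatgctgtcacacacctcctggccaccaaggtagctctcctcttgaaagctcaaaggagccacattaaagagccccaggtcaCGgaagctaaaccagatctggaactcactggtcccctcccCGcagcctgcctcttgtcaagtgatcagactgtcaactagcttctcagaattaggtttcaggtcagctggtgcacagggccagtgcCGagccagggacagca
Mlycd: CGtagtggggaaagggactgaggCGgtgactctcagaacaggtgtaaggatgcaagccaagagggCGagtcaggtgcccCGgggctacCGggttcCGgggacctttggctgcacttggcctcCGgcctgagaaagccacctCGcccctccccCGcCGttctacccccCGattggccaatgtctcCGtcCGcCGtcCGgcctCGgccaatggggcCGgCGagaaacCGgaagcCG
Acsl1: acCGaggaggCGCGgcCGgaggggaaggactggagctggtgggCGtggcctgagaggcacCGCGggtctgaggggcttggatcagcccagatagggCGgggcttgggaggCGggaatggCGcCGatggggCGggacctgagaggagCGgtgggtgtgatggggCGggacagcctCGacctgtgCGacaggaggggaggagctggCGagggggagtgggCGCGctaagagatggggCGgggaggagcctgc
Acsl4: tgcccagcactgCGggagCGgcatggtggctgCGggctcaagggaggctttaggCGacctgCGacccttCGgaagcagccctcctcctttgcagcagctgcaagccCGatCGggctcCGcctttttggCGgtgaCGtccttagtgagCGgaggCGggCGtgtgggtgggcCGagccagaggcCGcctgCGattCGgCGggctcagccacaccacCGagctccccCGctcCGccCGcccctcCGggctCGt

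These printed stretches held 3 CG in Ucp3, 20 in Mlycd, 20 in Acsl1 and 25 in Acsl4, so a gene that fell and a gene that rose could each have many. Nuclear receptors of the Ppar and Err families, which govern fatty acid genes, bind sites built on AGGTCA. Searched on both strands of the 250 bases, AGGTCA was found in 8 of the 40 member windows (20%), each of a different gene, and in 14.0% of all windows. Of these 8 genes 4 (Cd36, Echs1, Plin5 and Ucp3) were lower, as were 12 of the 34 members with a window. TCAAGGTCA, which contains it, was found in 1 member window, of Acsl6, and in 0.39% of all windows. AGGTCANAGGTCA was found in no member window and in 0.033% of all windows. A match only describes the letters in these windows.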

How the data were processed

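RNA-seq libraries of 3 Cfp1-cKO and 3 WT hearts were grouped by their titles. The authors deposited FPKM per gene in 2 tables with identical values for all 26881 genes. The submitters' notes name CASAVA, Bowtie2 2.2.3, TopHat2, HISAT2 2.1.0, HTSeq 0.6.0, DESeq2 and GRCm38 with no order, and the paper names Bowtie2, TopHat, DESeq and a chicken genome address. The extraction text speaks of retinas, and how it relates to these hearts is not given in the sources used here. The annotation columns of the authors were not used beyond symbols.

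The FPKM came in whole steps of 1 fragment, within a tolerance of 0.02, for 99.7% of genes, which gave library totals of 16672652 to 22700811 fragments and, for voom, fragments per gene. The pseudocount of 1 FPKM and the minimum mean of 1 FPKM were applied before limma 3.58.1 (R 4.3.3, trend in the prior variance). The method was tested on simulated data in which few genes changed, with falls and rises drawn equally. That test does not cover a shift of many genes in 1 direction, as in these data. Replicates differed beyond sampling noise (chi-square per degree of freedom 30.9 to 78.9). Shares were compared by exact permutation tests. Tables used Python 3.11.15, pandas 2.3.3, numpy 2.4.6 and matplotlib 3.10.9. Coordinates are of GRCm38. GENCODE M21 matched 26801 genes by identifier.

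The members and lists were chosen with earlier results of these data known. All members are accounted for, with values in every library for those that passed, for Acsl1, Acsl3, Cpt1b and Mlycd, which the study measured by qRT-PCR, and for the most abundant gene of each step, and up to 3 genes per pathway list. By qRT-PCR the paper reports Acsl1, Acsl3 and Cpt1b as lower in Cfp1-cKO mice at 2 weeks of age. Here Acsl3 did not pass and Cpt1b was not tested. The paper names Mlycd (as Mylcd) in the legend of a figure on neonatal hearts. Alternatives covered pseudocount, filter, scaling (median of ratios, cardiomyocyte markers, removal of mitochondrial and haemoglobin genes), voom, the replicate number as a block and each library left out. Xist was above 1 FPKM in Cfp1-cKO replicates 1 and 2 and in WT replicate 2, so sex was not balanced between the genotypes. Sex, read in this way, was added as a covariate after seeing the data. Some genes of the pathway lists are not reported here.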

Additional observations from a re-analysis of the deposited data

How the results depend on the processing

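Lower and higher members numbered 14 and 2 from FPKM as deposited, with the same numbers at a pseudocount of 0.1 FPKM, a minimum mean of 5 FPKM and by voom. Without a filter they were 8 and 1 (1609 genes called in all, against 2510), after median-of-ratios scaling 20 and 1 (770 in all, members' median -0.89), without mitochondrial and haemoglobin genes 15 and 1 (1477 in all, median -0.58), and scaled to cardiomyocyte markers 2 and 2 (4336 in all, median -0.11). At a minimum of 5 FPKM 1179 genes were called. With sex as a covariate, chosen after seeing the data, they were 12 and 2 (197 lower and 3006 higher among all genes). Crat and Acot1 did not pass with that covariate. Leaving out 1 library gave between 1 and 11 lower members and between 1 and 2 higher, with members' medians between -0.52 and -0.31. Between 588 and 2789 genes were then called in all, with between 50 and 201 lower and between 538 and 2588 higher. The Cpt1b share, -0.472 points lower in Cfp1-cKO hearts, came to between -1.05 and 0.0462 without 1 library, reversing without Cfp1-cKO replicate 2. The Acsl1 and Ucp3 shares kept their direction, between -22.2 and -18.3 points for Acsl1 and between -36.2 and -18.0 points for Ucp3.

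No member that passed the test changed sign. Those that did not pass changed sign after median-of-ratios scaling (Cpt1a -0.37, Slc22a5 -0.37, Acadl -0.33, Acot2 -0.36), without mitochondrial and haemoglobin genes (Cpt1a -0.08, Slc22a5 -0.08, Acadl -0.02, Acot2 -0.06), scaled to cardiomyocyte markers (Fabp3 0.03, Acsl3 0.11, Acadvl 0.06, Acads 0.25, Hadha 0.06, Hadhb 0.29, Ucp2 0.08, Acot13 0.29) and with sex as a covariate (Ucp2 0.01). With 1 library left out, values lay between -0.11 and 0.19 for Cpt1a, -0.17 and 0.15 for Slc22a5, -0.21 and 0.07 for Hadhb, -0.78 and 0.03 for Ucp2, -0.03 and 0.18 for Acot2, and -0.21 and 0.04 for Acot13. The median of the activation genes turned to -0.04 after median-of-ratios scaling and that of the thioesterases to 0.29 when scaled to cardiomyocyte markers. The cause was not tested.

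With the replicate number as a block 10 members were lower and 2 higher, and 1749 genes were called, 152 of them lower and 1597 higher. Same-numbered libraries correlated at 0.108, 0.036 and 0.104 in their deviations from the group means, so the numbers were not taken as pairs, although each library correlated best with its own number.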
